A study of Mus musculus with 16 samples.

Results

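The mRNAs of 10 genes of the mTOR pathway, of 57010 counted genes, were followed in mouse granulosa cells (mGCs), which line the follicle and nourish the oocyte. The genes were chosen by name, as the rows of both count tables that carry the symbols Mtor, Mlst8, Rptor, Rictor, Tsc1, Tsc2, Ddit4, Rheb, Eif4ebp1 and Rps6kb1. Freshly isolated mGCs came from 5 female ICR mice with endometrium allografted as a model of endometriosis (EM group) and from 5 sham-operated mice (Con group). The mice were 6 weeks old at surgery, the recipients of endometrium were given estradiol for 14 days, and ovulation was induced on day 30. The methods do not say whether the sham-operated mice were given estradiol. If they were not, graft and estradiol cannot be told apart between the EM and Con groups. In a second experiment, mGCs of 6 EM mice were divided and cultured in medium with 5% serum with PBS or with 100 nM 14,15-EET, an epoxide of arachidonic acid made by cytochrome P450 enzymes, and 3 libraries were made of each. The labels give 24 h of culture and 24 h of EET, and the study's text differs on whether the treatment began with the culture or followed a first 24 h without it. The labels do not tie the 6 mice to single libraries. Every cultured library therefore came from EM mice, and no cultured cells of Con mice were analysed here.

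mTOR is a serine and threonine kinase that works in a pair of protein complexes. Complex 1 holds mTOR, mLST8 and Raptor (Rptor), senses growth factors and amino acids, and drives translation by phosphorylating 4E-BP1 (Eif4ebp1) and the kinase S6K1 (Rps6kb1). Complex 2 holds mTOR, mLST8 and Rictor and phosphorylates AKT and SGK1. The small GTPase Rheb switches complex 1 on at the lysosome, TSC1 and TSC2 together switch Rheb off, and REDD1 (Ddit4) acts through the TSC proteins in hypoxia, starvation and glucocorticoid exposure. In granulosa cells the pathway lies downstream of gonadotropins and of insulin-like growth factor. Only mRNA was measured in these libraries, and the activity of the kinase, which is set by phosphorylation, was not.

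Between 14229123 and 15999234 reads were counted per fresh library and between 21384686 and 29482826 per cultured library. Each of the 10 genes had at least 251 reads in every library. Levels are given as CPM, the reads of a gene relative to all counted reads of the library after scaling with TMM factors over all 16 libraries. A lower level can mean fewer cells that express a gene or less RNA per cell, which cannot be told apart in bulk RNA. A pair of fresh libraries stood apart. Con-mGC-1 had the fewest detected genes, 22071 against 26085 to 27642 in the other Con libraries, and EM-mGC-3 had 21.8% mitochondrial reads against 6.76% to 11.1% in the other 9 fresh libraries. The granulosa genes Foxl2 (163 to 276 CPM), Inha (2593 to 7560.2 CPM) and Cyp19a1 (139.5 to 623 CPM) were abundant in every fresh library. In the cultured cells Foxl2 (120.3 to 157 CPM) and Inha (2078 to 3050.4 CPM) stayed abundant, whereas Cyp19a1, the aromatase, was at or near 0 (0.0 to 0.375 CPM) and Fshr, the FSH receptor, was between 4.75 and 6.24 CPM. Markers of other cell types were present in the fresh libraries. Those of leukocytes summed to between 251 and 625 CPM in EM-mGCs and between 169 and 346 CPM in Con-mGCs, and those of red blood cells to between 2442 and 16069 CPM and between 3461 and 5456 CPM. After culture the leukocyte sum was at most 27.9 CPM, with Ptprc, S100a8 and S100a9 at or near 0.

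The 10 mRNAs differed widely in abundance. Per kilobase of exon, Ddit4 was the most abundant member in fresh cells, at 37.7 ± 4.89 CPM per kb in Con-mGCs and 51.7 ± 10.5 in EM-mGCs (mean ± SD, n = 5 each). Eif4ebp1 came next, at 18.1 ± 2.58 and 23.5 ± 5.40 CPM per kb, and its range lay apart from those of both neighbours in the order. Tsc2, Rheb and Mtor followed, between 8.02 and 11.9 CPM per kb on average, and the ranges of neighbours in that order overlapped in both groups. Rictor was the least abundant member in every group, and its mean ran from 2.61 CPM per kb in the PBS group to 3.44 in Con-mGCs. Raptor mRNA was second lowest in fresh cells, at 4.41 ± 0.242 CPM per kb in Con-mGCs and 3.99 ± 0.450 in EM-mGCs.

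The order changed at the top in culture. Eif4ebp1 stood first there, at 101.6 ± 9.29 CPM per kb with PBS and 94.4 ± 6.25 with EET (n = 3 each), and Ddit4 second, at 51.6 ± 5.02 and 60.7 ± 3.54. Their ranges lay apart in both cultured groups. Raptor moved up to sixth place, where its range overlapped with that of the next gene in both cultured groups, and Tsc1 and Rictor took the last places. The exon length used for this scaling is the union of all annotated exons, so the level of a gene with long or rare isoforms is understated against the others.

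**Figure D1:**
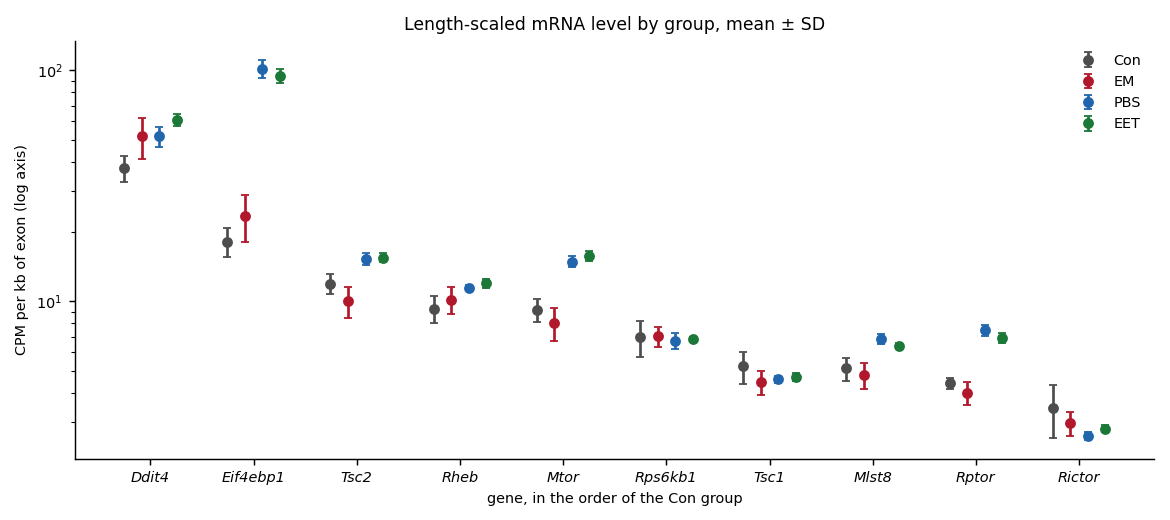
Length-scaled mRNA levels of the 10 genes (CPM per kb of exon, log axis) in the Con, EM, PBS and EET groups, with points at the mean and bars at ± 1 SD (n = 5, 5, 3 and 3). Ddit4 leads in the fresh groups and Eif4ebp1 in the cultured groups, and Rictor is lowest in all 4.

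The first comparison asked whether the ovaries of EM mice hold mGCs with another mTOR gene program. None of the 10 genes was called in EM-mGCs against Con-mGCs (0 of 10 at an adjusted p under 0.05, by the quasi-likelihood test of edgeR, with Benjamini and Hochberg's adjustment), where 0.0% of 17229 tested genes were called. At an unadjusted p under 0.05 there were 3 members, Ddit4, Eif4ebp1 and Tsc2, against 9.44% of all genes, and DESeq2 called 116 genes but 0 members. The fitted changes were above 0 in 4 members and below 0 in 6, with a median of -0.13 on the log2 scale against -0.01 over all tested genes. The 95% intervals of the 10 changes together reached from 0.655-fold to 1.70-fold. No member separated the groups without overlap (0 of 10, against 1.73% of all genes). Some markers of other cells differed in range between the same groups, and none was called. Those of stromal cells summed to between 345 and 803 CPM in EM-mGCs and between 841 and 991 CPM in Con-mGCs, and those of endothelial cells to between 72.4 and 126.5 CPM and between 129.9 and 151 CPM. The stromal Col1a1, the smooth muscle genes Myh11 and Cnn1, the theca gene Gli1 and the endothelial Tek were each lower in EM-mGCs without overlap, and were named after their values were seen. Every other gene of the 10 marker lists overlapped between the groups. Among the theca markers Insl3 reached higher in EM-mGCs (1.03 to 7.57 CPM, Con-mGCs 0.608 to 3.06 CPM), and the median change of that list was 0.0008 on the log2 scale. The part of the markers in the member levels was not tested.

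The second comparison asked what 14,15-EET did to the same genes in cultured mGCs of EM mice. Again 0 of 10 members were called, where 1.22% of 15050 tested genes were. Ddit4 alone had an unadjusted p under 0.05 (12.4% of all genes), and it alone separated the groups without overlap, being higher in all 3 EET libraries (8.06% of all genes did so in that direction). The 95% intervals of all 10 changes lay between 0.844-fold and 1.31-fold. This fit left out the pairing of the cultured replicates that the methods state. With the replicate number as a block, the same test called 341 genes, among them 1 member, Ddit4 (adjusted p = 0.0288).

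The third comparison set PBS-treated cultured mGCs against fresh EM-mGCs, both from EM mice. Culture, experiment and sequencing depth differ between these groups together and cannot be told apart, and 69.0% of 17301 tested genes were called. Against that background 5 of 10 members were called, all of them higher in culture (31.1% of all genes were called higher and 37.9% lower): Eif4ebp1, Rptor, Mtor, Tsc2 and Mlst8. The same 5 lay without overlap above the fresh cells, against 32.2% of all genes. The median change was 0.32 over the members and -0.11 over all genes. Scaling mattered here, since the median of all genes moved to -0.36 with upper-quartile factors, and changes are therefore also given relative to the median. Granulosa markers moved at the same time, with 10 of 11 called lower in culture, as were 8 of 8 leukocyte, 5 of 5 red blood cell, 7 of 7 oocyte, 5 of 5 endothelial, 5 of 5 surface epithelial, 4 of 5 stromal, 4 of 6 luteal and 3 of 6 theca markers. Called higher were 2 of 4 smooth muscle markers, with 1 lower, 1 luteal marker (Parm1, 49.7 to 157 CPM in EM-mGCs and 1614 to 1931 CPM with PBS) and 1 theca marker (Aldh1a1, 331 to 576 and 3538 to 4272 CPM). With EET 3 markers were called, where 1.22% of all genes were. They were 1 of 9 tested granulosa markers (lower), 1 of 5 tested luteal markers (higher) and 1 of 4 tested smooth muscle markers (lower). Their part in the changes of the members was not tested.

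**Figure D2:**
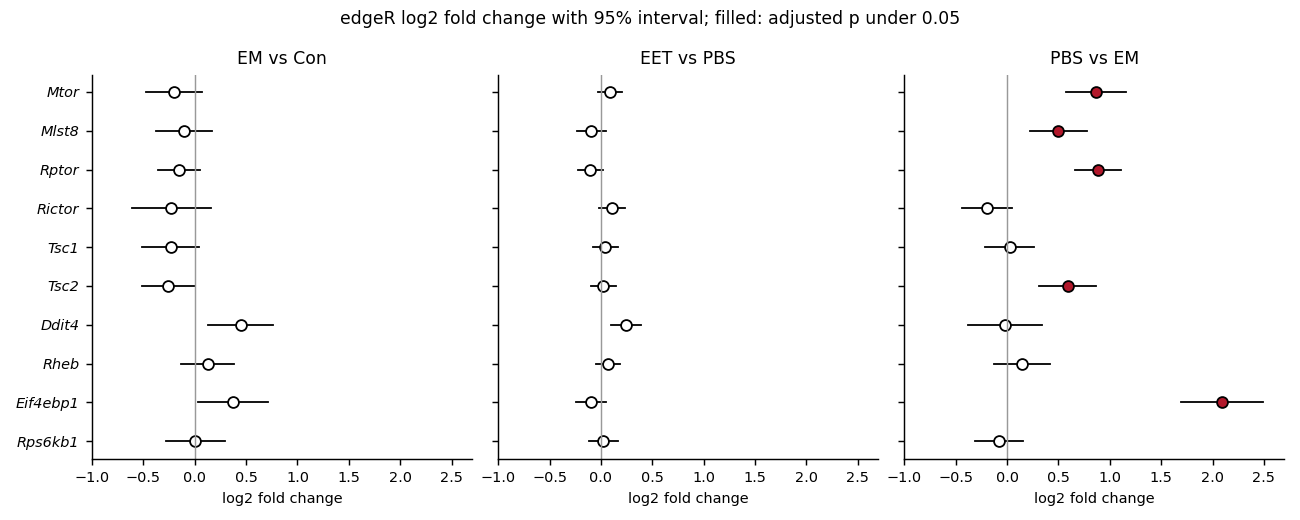
Log2 fold change of each gene with its 95% interval in EM-mGCs against Con-mGCs, in EET against PBS, and in PBS-cultured against fresh EM-mGCs, with filled points at an adjusted p under 0.05. Filled points occur in the culture comparison alone, for Eif4ebp1 (2.09), Rptor (0.89), Mtor (0.87), Tsc2 (0.59) and Mlst8 (0.50).

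Mtor (ENSMUSG00000028991) encodes the kinase itself and lies on the plus strand at chr4:148533068-148642140 in the coordinates deposited with the counts, which the submitters' processing notes place on GRCm39. It overlaps Angptl7 on the opposite strand and 2 small RNA genes, and since the strand setting of the counting is not given in the sources used here, shared reads make its count uncertain. Mtor was at 79.9, 104, 84.0, 97.6 and 98.1 CPM in the 5 Con libraries and at 97.8, 81.2, 61.2, 84.4 and 80.7 CPM in the 5 EM libraries. The ranges overlapped, and the lowest EM value was that of EM-mGC-3. The fitted change was -0.20 (log2, SE 0.125, adjusted p = 0.62). In culture Mtor was at 154, 141 and 155 CPM with PBS and at 163, 149.8 and 164 CPM with EET. Cells given EET did not separate from those given PBS (0.09, SE 0.0536, adjusted p = 0.517), but every cultured library exceeded every fresh one. Against fresh EM-mGCs the level was 1.82-fold higher with PBS (95% interval 1.49 to 2.23, adjusted p = 0.000225), which is 0.98 on the log2 scale above the median of all genes.

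Mlst8, a subunit that both complexes share and that steadies the kinase domain, was the least expressed member per library, between 17.6 and 25.5 CPM in fresh mGCs and between 27.7 and 31.6 CPM in culture. EM-mGCs and Con-mGCs overlapped (-0.10, SE 0.125, adjusted p = 0.806), and so did EET and PBS (-0.09, SE 0.0657, adjusted p = 0.594). Mlst8 rose 1.41-fold in PBS culture against fresh EM-mGCs (95% interval 1.17 to 1.71, adjusted p = 0.00476), or 0.61 above the median of all genes on the log2 scale. That call was lost with upper-quartile factors (0.25, adjusted p = 0.114).

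Raptor, the scaffold that brings substrates to complex 1, was the steadiest member in fresh Con-mGCs. Rptor (ENSMUSG00000025583, chr11:119493731-119790402, plus strand) was at 62.8, 59.3, 54.1, 61.0 and 59.97 CPM in the Con libraries and at 62.7, 55.8, 46.6, 50.4 and 53.5 CPM in the EM libraries. The groups overlapped, with EM-mGC-3 again lowest, and the change was -0.15 (SE 0.0935, adjusted p = 0.616). With PBS the 3 libraries held 107, 95.7 and 100.2 CPM, and with EET 99.1, 90.8 and 90.7 CPM. Raptor mRNA thus overlapped between PBS and EET (-0.10, SE 0.0562, adjusted p = 0.483), and all 6 cultured libraries lay above all 10 fresh ones. It rose 1.85-fold in PBS culture (95% interval 1.58 to 2.16, adjusted p = 4.09e-05), or 0.997 above the median of all genes on the log2 scale.

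Rictor, the subunit that defines complex 2, was called in no comparison with the settings used here. Rictor (ENSMUSG00000050310, chr15:6737860-6829882, plus strand) was at 34.7, 67.2, 52.1, 68.0 and 69.5 CPM in the Con libraries and at 56.2, 53.2, 40.7, 49.6 and 50.6 CPM in the EM libraries. Con-mGC-1 was the lowest of all 10, and without it the change in EM-mGCs moved from -0.23 (SE 0.176, adjusted p = 0.688) to -0.36 (adjusted p = 0.384). The cultured libraries were at 42.9, 46.1 and 43.8 CPM with PBS and at 48.7, 45.5 and 48.2 CPM with EET, with overlap (0.11, SE 0.0592, adjusted p = 0.492). Against fresh EM-mGCs the PBS level was 0.872-fold (95% interval 0.737 to 1.03, adjusted p = 0.127). It was called lower with upper-quartile factors (-0.45, adjusted p = 0.00607), with a minimum of 10 counts in every library, and without EM-mGC-3 (-0.28, adjusted p = 0.0113).

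Because Mtor and Rptor rose in culture while Rictor was not called, the stretches of sequence before their transcription starts are shown, written 5′ to 3′ on the strand of the gene, from RefSeq on GRCm38.p6. Of the 10 members, 9 had an entry in the promoter table. Capitals mark matches, on either strand, to motifs that were searched in the 250 bases before the start. The core of the hypoxia response element was searched as ACGTG. The E-box that the TFEB family binds was searched as CACGTG, which contains the former. The element bound by ATF4 with C/EBP proteins was searched as TGATGNAA, the YY1 motif as AAGATGGCG, the NRF1 motif as GCATGCGC, and the single arm of a steroid receptor element as AGAACA. The promoter box named for its letters was searched as CCAAT, which reads ATTGG on the opposite strand.
Mtor, chr4:148448332-148448581, plus strand: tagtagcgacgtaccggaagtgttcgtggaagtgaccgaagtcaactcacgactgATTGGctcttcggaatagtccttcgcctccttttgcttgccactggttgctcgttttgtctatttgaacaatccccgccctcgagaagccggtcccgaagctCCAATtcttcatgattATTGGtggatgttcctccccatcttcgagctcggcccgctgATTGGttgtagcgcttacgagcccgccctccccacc
Rptor, chr11:119602655-119602904, plus strand: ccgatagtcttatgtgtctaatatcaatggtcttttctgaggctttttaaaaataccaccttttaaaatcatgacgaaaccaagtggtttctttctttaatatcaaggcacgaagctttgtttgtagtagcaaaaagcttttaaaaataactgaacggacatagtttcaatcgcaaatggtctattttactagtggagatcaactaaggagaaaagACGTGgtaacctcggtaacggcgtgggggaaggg
Rictor, chr15:6708131-6708378, plus strand: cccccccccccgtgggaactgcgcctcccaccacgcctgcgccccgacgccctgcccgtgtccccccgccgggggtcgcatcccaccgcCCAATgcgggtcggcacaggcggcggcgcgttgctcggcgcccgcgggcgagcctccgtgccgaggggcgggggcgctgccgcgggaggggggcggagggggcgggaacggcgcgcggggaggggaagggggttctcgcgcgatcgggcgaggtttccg

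The Mtor stretch held CCAAT at 4 places, of which 3 were on the opposite strand, between base -195 and base -32 from the start. CCAAT was present in 33.8% of all 32851 promoter stretches of this length and in 3 of the 9 members (Mtor, Rictor and Ddit4). The Rptor stretch held ACGTG from -34 to -30, a motif found in 16.6% of all stretches and in 3 of the 9 members (Rptor, Ddit4 and Rheb). The Rictor stretch held 1 CCAAT, from -161 to -157. The share of G and C was 81.2% for Rictor, 54.4% for Mtor and 37.6% for Rptor, around a median of 52.4% over all stretches. The YY1 and ATF4 motifs had no match in any of the 9 members (0.606% and 3.45% of all stretches), CACGTG had one in Rheb, and GCATGCGC and AGAACA had matches in Rps6kb1. A match describes letters in this window, and no binding was measured.

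The balance between the complex-defining subunits was read as the ratio of Rptor to Rictor counts within each library, which does not depend on library scaling. In EM-mGCs the ratio was 1.12, 1.05, 1.14, 1.02 and 1.06, and in Con-mGCs 1.81, 0.882, 1.04, 0.897 and 0.863. The highest value was that of Con-mGC-1, and the other 4 Con libraries lay between 0.863 and 1.04. The groups overlapped (1.02-fold in EM, exact permutation test, two-sided p = 0.968). With PBS the ratio was 2.49, 2.08 and 2.29, and with EET 2.03, 1.99 and 1.88. All EET libraries were thus below all PBS libraries, by 0.21 on the log2 scale of the ratio. The exact permutation test gave p = 0.1, the smallest that 3 against 3 libraries can give, and 0.24 after adjustment over the 12 ratio tests. All PBS libraries were above all fresh EM libraries, with a 2.12-fold higher ratio (exact permutation p = 0.0357, the smallest that 3 against 5 can give, and 0.143 after adjustment over the 12 ratio tests).

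**Figure D3:**
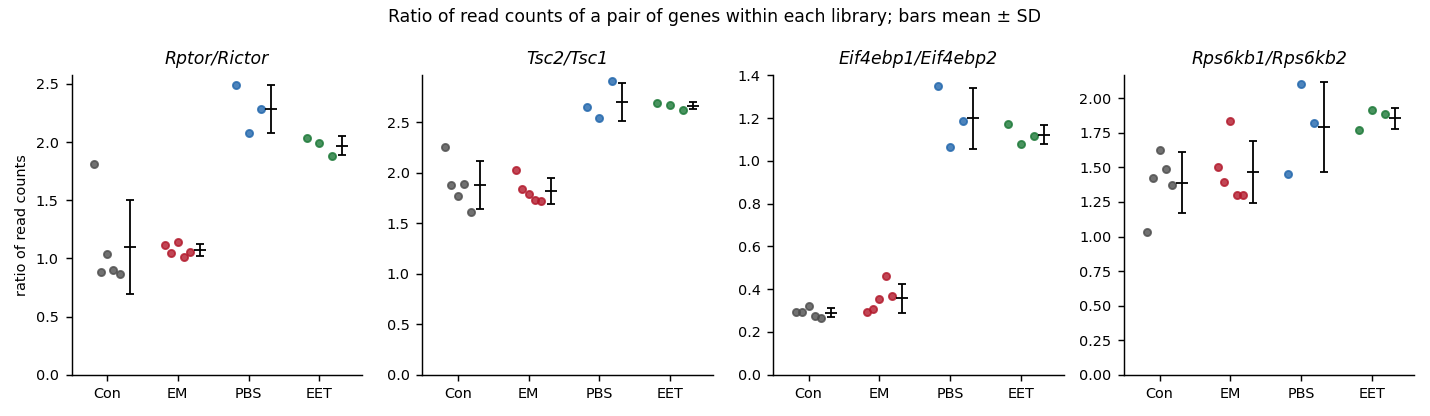
Ratios of read counts within each library for Rptor to Rictor, Tsc2 to Tsc1, Eif4ebp1 to Eif4ebp2 and Rps6kb1 to Rps6kb2 in the Con, EM, PBS and EET groups, with points for libraries and bars for the mean ± SD. The first 3 ratios lie higher in the cultured groups than in EM-mGCs without overlap, and Con-mGC-1 lies apart in the first at 1.81.

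TSC1 and TSC2 form the complex that inactivates Rheb, with TSC2 as the catalytic part. Tsc2 was at 108, 125, 97.6, 123 and 117 CPM in the Con libraries and at 116, 98.6, 76.6, 88.8 and 100.2 CPM in the EM libraries. Most EM libraries lay in the lower part of the common range, and the change was -0.26 (SE 0.119, unadjusted p = 0.0491, adjusted p = 0.527). Tsc1 had a like change without a call (-0.24, SE 0.127, adjusted p = 0.572), between 42.8 and 58.3 CPM in EM-mGCs and between 48.1 and 72.8 CPM in Con-mGCs. With EET neither gene separated from PBS (Tsc2 0.02, SE 0.055; Tsc1 0.04, SE 0.0566). In PBS culture Tsc2 rose 1.51-fold against fresh EM-mGCs (95% interval 1.24 to 1.82, adjusted p = 0.00182), whereas Tsc1 was at 1.02-fold (95% interval 0.863 to 1.20, adjusted p = 0.839). The Tsc2 change stood 0.70 above the median of all genes on the log2 scale. With upper-quartile factors it was smaller and still called (0.34, adjusted p = 0.0452). The Tsc2 to Tsc1 ratio was accordingly 2.54 to 2.91 with PBS and 1.72 to 2.03 in fresh EM-mGCs (1.48-fold, exact permutation p = 0.0357, adjusted over the 12 ratio tests 0.143). Tsc2 overlaps Pkd1 on the opposite strand, which held between 1043 and 6015 reads, so the Tsc2 count is uncertain.

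Ddit4 (ENSMUSG00000020108, chr10:59785491-59787656, minus strand) encodes REDD1, a small stress-induced inhibitor of complex 1, and overlaps no other counted gene. It was the member with the smallest unadjusted p both in EM-mGCs and with EET, so its start region is shown, cut before the first base that any annotation used here places in its transcript. Capitals mark the same motifs as above.
Ddit4, chr10:59951835-59952020, minus strand, GRCm38.p6: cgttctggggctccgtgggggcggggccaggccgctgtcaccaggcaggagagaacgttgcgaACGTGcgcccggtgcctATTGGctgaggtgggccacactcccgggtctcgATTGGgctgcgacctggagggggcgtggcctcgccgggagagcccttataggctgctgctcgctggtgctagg

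This stretch held ACGTG from -187 to -183, and CCAAT on the opposite strand from -170 to -166 and from -137 to -133, counted from the RefSeq start. In the 250 bases before that start, TGATGNAA, CACGTG and AGAACA had no match.

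Ddit4 was at 63.8, 57.1, 75.6, 74.8 and 59.5 CPM in the Con libraries and at 67.4, 112, 98.5, 76.1 and 99.3 CPM in the EM libraries. Of the 5 EM libraries, 4 lay above every Con library and EM-mGC-1 lay inside the Con range. The level was 1.36-fold in EM-mGCs (log2 0.45, SE 0.145, 95% interval 1.10 to 1.70), with an unadjusted p of 0.00918 and an adjusted p of 0.443, so the gene was not called. Leaving out single libraries moved the change between 0.36 and 0.54, and leaving out both Con-mGC-1 and EM-mGC-3 gave 0.41 (adjusted p = 0.452). The leukocyte marker sums given above reached higher in EM-mGCs, with overlap. Of these markers, 4 of 8 had an unadjusted p under 0.05 (9.44% of all genes) and 0 were called. Lyz2 was at 159 to 459 CPM in EM-mGCs and at 77.6 to 190 CPM in Con-mGCs. Ptprc lay inside its Con range (15.3 to 22.9 and 10.1 to 32.9 CPM). Adgre1 (7.33 to 19.8 and 9.92 to 16.7 CPM) and Csf1r (27.6 to 57.6 and 32.2 to 51.9 CPM) reached beyond theirs on both sides. The part of leukocytes in the Ddit4 level was not tested.

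In culture Ddit4 was at 99.3, 81.7 and 90.7 CPM with PBS and at 114, 105 and 102 CPM with EET. Every EET library was above every PBS library, by 1.18-fold (log2 0.24, SE 0.0686, 95% interval 1.07 to 1.31). The unadjusted p was 0.00402 and the adjusted p 0.134, and over the 13 alternatives, of which 3 called the gene, the adjusted p ran from 0.00508 to 0.365. Ddit4 was called without a filter, with the replicate number as a block (0.24, adjusted p = 0.0288) and without PBS library 1 (0.31, adjusted p = 0.0159). Without PBS library 2 the change was 0.18. The methods call the cultured replicates paired but do not tie the pairs to replicate numbers. The PBS libraries themselves differed by a like amount, from 81.7 to 99.3 CPM. Fresh EM-mGCs and PBS-cultured cells did not differ in Ddit4 beyond their spread (0.984-fold, 95% interval 0.765 to 1.26, adjusted p = 0.905).

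**Figure D4:**
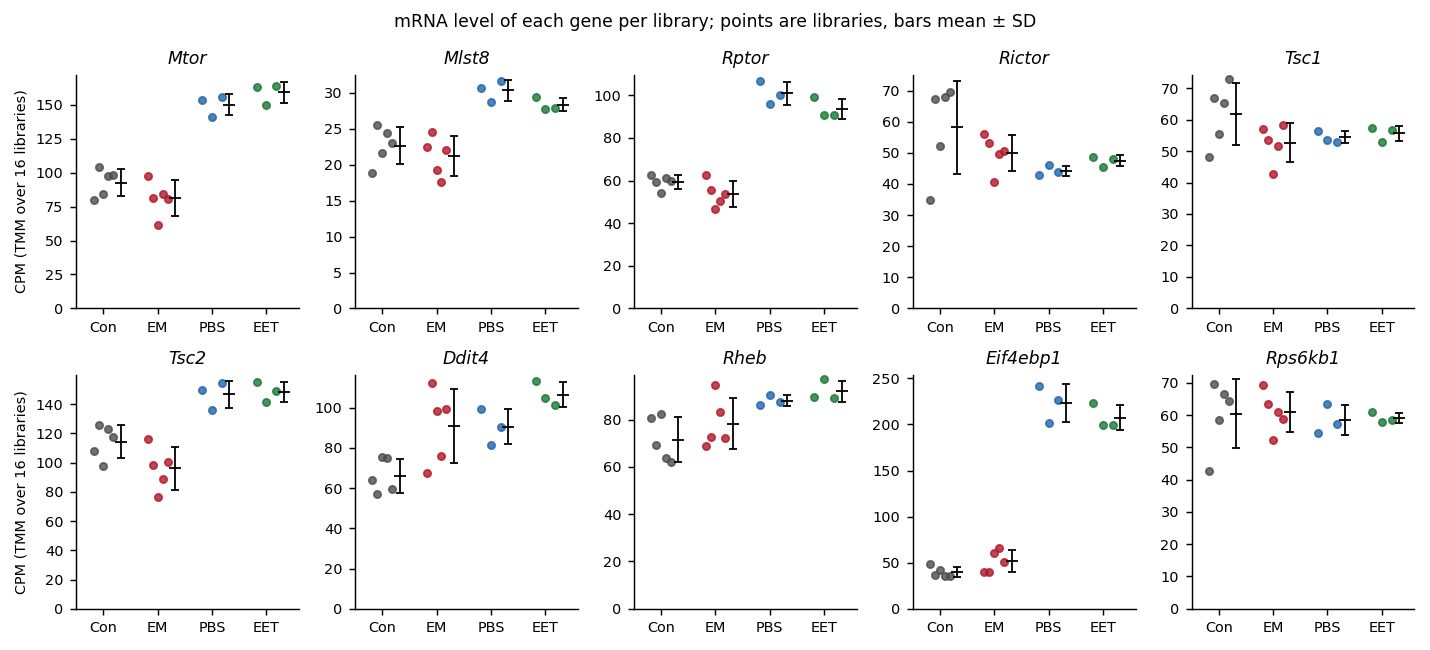
mRNA level of each of the 10 genes (CPM, TMM-scaled over 16 libraries) in every library of the Con, EM, PBS and EET groups, with bars at the mean ± SD. Ddit4 in the 3 EET libraries (102 to 114 CPM) lies above the 3 PBS libraries (81.7 to 99.3 CPM), and Eif4ebp1 in all cultured libraries (199 to 241 CPM) lies far above the fresh ones (35.3 to 66.4 CPM).

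Rheb, the GTPase that activates complex 1, was between 61.9 and 82.5 CPM in Con-mGCs, between 68.8 and 94.7 CPM in EM-mGCs, between 86.1 and 90.6 CPM with PBS and between 89.3 and 97.2 CPM with EET. It was the one member for which EM-mGC-3 held the highest EM value. The change was 0.12 in EM-mGCs (SE 0.117, adjusted p = 0.749), 0.07 with EET (SE 0.0544, adjusted p = 0.643) and 0.15 in PBS culture (SE 0.123, adjusted p = 0.307). The last was called without EM-mGC-3 (0.22, adjusted p = 0.0431) and turned below 0 with upper-quartile factors (-0.10).

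Of both substrates, 4E-BP1 had the wider range of levels. Eif4ebp1 (ENSMUSG00000031490, chr8:27750357-27766702, plus strand) encodes the repressor that holds the cap-binding factor eIF4E until complex 1 phosphorylates it. It was at 48.6, 37.0, 41.9, 35.3 and 35.4 CPM in the Con libraries and at 40.4, 39.6, 60.2, 66.4 and 50.9 CPM in the EM libraries. The 3 highest values were all from EM mice, and the groups overlapped below 48.6 CPM (1.29-fold, log2 0.37, SE 0.157, unadjusted p = 0.0348, adjusted p = 0.514). The cultured libraries were at 241, 201 and 227 CPM with PBS and at 223, 199 and 199.6 CPM with EET, and overlapped (-0.10, SE 0.0668, adjusted p = 0.576). Against fresh EM-mGCs the PBS level was 4.26-fold higher (95% interval 3.22 to 5.62, adjusted p = 6.85e-06), which stands 2.20 above the median of all genes on the log2 scale. The change lay between 1.84 and 2.19 under all 15 alternatives and was called in each.

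Eif4ebp2 encodes a related repressor and served as a comparator within each library. The ratio of Eif4ebp1 to Eif4ebp2 counts was 0.266 to 0.321 in Con-mGCs, 0.294 to 0.463 in EM-mGCs, 1.06 to 1.35 with PBS and 1.08 to 1.17 with EET. Between PBS and fresh EM-mGCs the ratio differed 3.39-fold without overlap (exact permutation p = 0.0357, 0.143 after adjustment over the 12 ratio tests). Between EM-mGCs and Con-mGCs it overlapped (1.22-fold, exact permutation p = 0.0556, adjusted 0.167).

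Rps6kb1, the gene of the ribosomal S6 kinase S6K1, was between 42.6 and 69.5 CPM in Con-mGCs, between 52.2 and 69.4 CPM in EM-mGCs, between 54.5 and 63.6 CPM with PBS and between 57.95 and 61.0 CPM with EET. No comparison called it, with changes of 0.006 in EM-mGCs, 0.02 with EET and -0.08 in PBS culture. The last became a call with upper-quartile factors (-0.34, adjusted p = 0.0219). The gene overlaps Rnft1 on the opposite strand, which held between 340 and 925 reads. The ratio of Rps6kb1 to Rps6kb2 overlapped in all 3 comparisons.

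Other genes of the pathway were read from 8 lists of 150 genes in all, which had been drawn up with earlier results of these data known. In EM-mGCs against Con-mGCs, 0 of the 150 were called. Deptor, an inhibitor that binds mTOR directly, averaged 68.9 CPM in EM-mGCs and 41.4 in Con-mGCs (log2 0.73, SE 0.3, adjusted p = 0.51). Sgk1, a kinase activated by complex 2, averaged 592 and 312 CPM (0.92, SE 0.349, adjusted p = 0.498). Both overlapped between groups. Of 10 glucocorticoid and progestin receptor targets, a class that Ddit4 also belongs to, 5 had an unadjusted p under 0.05, where 9.44% of all genes did, with a list median of 0.41 against -0.01 over all genes. Their summed level overlapped between the groups (780 to 1765 CPM in EM-mGCs and 787 to 1211 CPM in Con-mGCs). Of hypoxia targets, 0 of 15 had an unadjusted p under 0.05 (median 0.07). Of ATF4 targets, 2 of 18 did, a share near that of all genes (median 0.14). The part of these 3 lists in the Ddit4 level was not tested.

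With EET, 1 of the 150 genes of the 8 lists was called, a share no higher than the 1.22% of all genes. Ndrg1, a hypoxia-induced gene whose protein is a substrate of SGK1, rose from 28.2 to 38.4 CPM on average (log2 0.44, SE 0.0892, adjusted p = 0.0321). The call was lost when any of the 3 EET libraries was left out (adjusted p from 0.0908 to 0.21), while the change stayed between 0.42 and 0.48. Deptor was higher in every EET library, with 187 against 161 CPM (0.22, SE 0.0517, adjusted p = 0.0709). Sesn2, a leucine sensor that restrains complex 1, was lower in every EET library, with 80.4 against 88.6 CPM (-0.14, SE 0.0472, adjusted p = 0.248). The list medians lay between -0.06 and 0.03. The number of called list genes moved with the processing. With the replicate number as a block, 341 genes of the whole table were called. Among the lists, these were 1 subunit or assembly gene, 1 glucocorticoid and progestin receptor target and 2 hypoxia targets.

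In PBS culture against fresh EM-mGCs, where 69.0% of all genes were called, the lists moved to different extents. ATF4 targets rose in 16 of 18 cases and fell in 0, with a median of 1.63. Among them, Slc7a1, a transporter of cationic amino acids, went from 37.3 to 483 CPM (3.67, adjusted p = 2.46e-07) and Chac1, which degrades glutathione, from 0.991 to 21.5 CPM (4.41, adjusted p = 2.65e-06). Genes of lysosomes under TFEB also rose in 16 of 18 cases and fell in 0 (median 0.71), among them Ctsd, a lysosomal protease, with 930.5 against 276 CPM (1.73, adjusted p = 1.57e-05).

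The lists closer to the mTOR complexes held called genes in both directions, in all at about the share called among all genes (69.0%). In each of these lists more genes were called higher than lower. Among all genes the split went the other way, with 31.1% called higher and 37.9% called lower. Of 8 further subunits and assembly factors, 4 rose and 1 fell (median 0.21). Deptor (1.20), Akt1s1, the complex 1 inhibitor PRAS40 (0.82), and Mapkap1, the complex 2 subunit SIN1 (0.57), rose, whereas Prr5l, which binds Rictor, fell by 2.35 on the log2 scale. Of 28 upstream inputs 15 rose and 5 fell. The insulin receptor substrate Irs2 (2.71) and the AMPK subunit Prkab2 (2.18) rose, and the IGF1 receptor Igf1r (-1.12) and Ddit4l, the paralog of Ddit4 (-2.26), fell. Of 30 genes of lysosomal amino acid sensing 12 rose and 6 fell, with the stress-induced Sesn2 at 2.22 and Sesn3 at -1.58. Of 23 substrates and translation genes 12 rose and 3 fell, led by the lipin gene Lpin1 (1.83) and by the initiation scaffold Eif4g1 (1.41).

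Of the lists for the known inducers of Ddit4, ATF4 targets rose in 16 of 18 cases and fell in 0, as given above. The glucocorticoid and hypoxia lists went in both directions. Glucocorticoid and progestin receptor targets rose in 2 and fell in 6 of 10 cases, with the metallothionein gene Mt1 at 1.49 and Tsc22d3, the gene of GILZ, at -1.81. Hypoxia targets rose in 5 and fell in 5 of 15 cases, with the oxygen sensor Egln1 at 1.61 and the glycolytic regulator Pdk1 at -0.86. The part of these lists in the Ddit4 level was not tested.

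**Figure D5:**
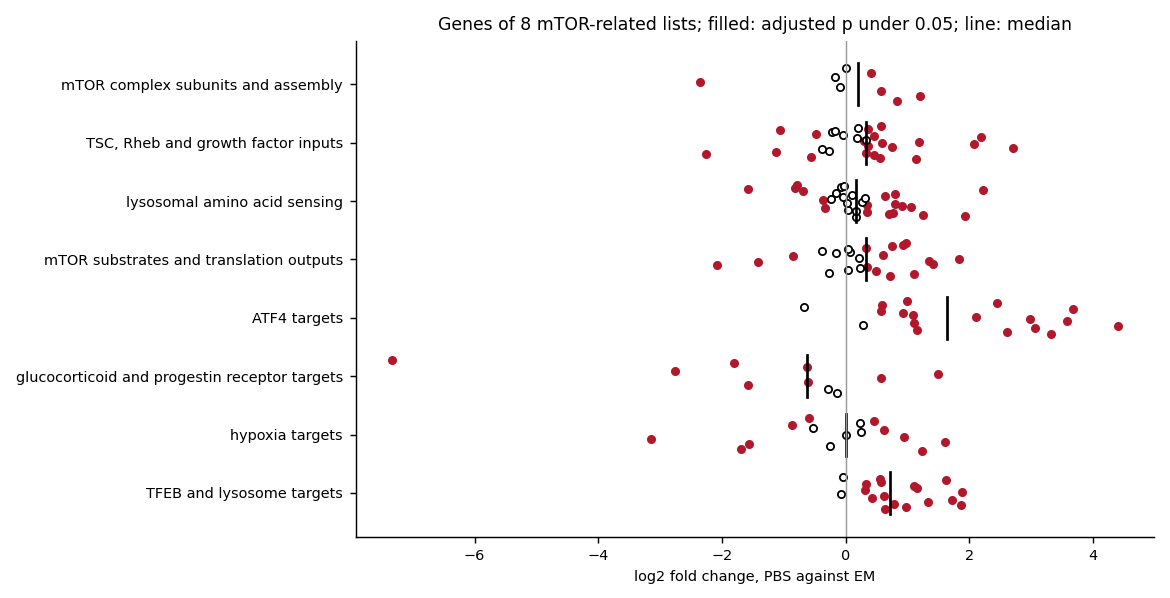
Log2 fold change of the genes of 8 mTOR-related lists in PBS-cultured against fresh EM-mGCs, with a point for each gene, filled at an adjusted p under 0.05, and a line at each list's median. ATF4 targets (median 1.63) and lysosomal genes under TFEB (median 0.71) lie mostly to the right of 0, and the other lists lie on both sides.

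The members differed in how they varied over the 10 fresh libraries. Likeness was measured over the 10 fresh libraries as the mean absolute difference of log2 CPM after centring each gene, among 10352 genes with a mean of at least 10 CPM. Each gene was centred over both groups together, so the measure holds the difference between EM-mGCs and Con-mGCs as well as the spread between mice. It also depends on how much each gene varies. The genes closest to Mtor were Zfp384 (0.03), Morc2a (0.05), Ulk3 (0.05), Gtf3c1 (0.06) and Ewsr1 (0.06), against a median of 0.24 over all genes. Tsc2 was the member nearest to Mtor, at rank 12 (0.06), followed by Tsc1 at rank 122 and Rptor at rank 490. Eif4ebp1 (rank 9438) and Ddit4 (rank 9349) were among the genes least like Mtor. For Ddit4 the closest genes were Vopp1, Ebag9, Ier3ip1, Gdnf and Samd8 (all 0.14, median over all genes 0.31), and the nearest members were Rheb at rank 1563 and Eif4ebp1 at rank 2178. The libraries share these points, and EM-mGC-3 and Con-mGC-1 bear on them. EM-mGC-3 held the lowest EM value of 6 members (Mtor, Rptor, Rictor, Tsc1, Tsc2 and Rps6kb1), and Con-mGC-1 the lowest Con value of 5 (Mtor, Mlst8, Rictor, Tsc1 and Rps6kb1).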

How the data were processed

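Poly(A) RNA of 16 libraries was sequenced from stranded libraries as paired 150 bp reads. The authors deposited raw read counts per Ensembl gene in 1 table for each experiment, made with featureCounts according to the file names. The submitters' processing notes name fastp, HISAT2, StringTie and GRCm39, and versions, strand setting and the treatment of shared reads are not given in the sources used here. No column was left unused (0). The authors' deposited count is the only unit used, and totals were 14229123 to 15999234 (fresh) and 21384686 to 29482826 (cultured).

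Counts were filtered with filterByExpr, scaled with TMM and compared with edgeR 4.0.16 (quasi-likelihood test, Benjamini-Hochberg adjustment over all tested genes, called at 0.05) in R 4.3.3, each comparison in a fit of its own groups. DESeq2 1.42.0, RLE and upper-quartile factors, no filter, a minimum of 10 counts, no mitochondrial genes, the replicate number as a block, 1 fit of all libraries and leaving out each library were the alternatives. Leaving out Con-mGC-1 and EM-mGC-3 together was chosen after seeing the data. Ratios were compared by two-sided exact permutation tests, adjusted over 12. Exon lengths (10 of 10 genes) came from GENCODE M21 and promoter sequences (9 of 10) from RefSeq, both on GRCm38, and no coordinates were converted.

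The members, gene lists and tests were chosen with earlier results of these data known. Beyond the members, a rule drew called genes of each list whose mean was 1 log2 CPM or more, up to 3 in each direction, and the gene with the smallest p where none was called. Deptor, Sgk1 and Sesn2 fall under this rule, but the text names only some of the genes it drew. Left out were Cab39, Kptn, Psph, Per1, Ldha and Gpnmb in EM-mGCs, and Pik3r1, Atg13, Psat1, Mt1 and Ctsb with EET, none of them called there. Some called genes of the culture comparison were also left out. Marker genes come from 10 lists. For Mtor and Ddit4 the text also names the 5 genes closest by likeness. The methods give mice as replicates of the fresh groups, and p-values measure only the spread between these libraries. On simulated counts with 200 changed genes, edgeR recovered 51% of 2-fold and 14% of 1.5-fold changes in the EM and Con design (17229 genes, 1 false call among 66), 87% and 65% in the EET and PBS design (15050 genes, 16 among 168), and 43% and 6% in the culture design (17301 genes, 4 among 53). The real culture comparison called 11937 genes, far more than the 200 changed here, so the last shares do not describe it. In the EM and Con design DESeq2 recovered 66% of 2-fold and 40% of 1.5-fold changes, with 34 false calls among 140. Recovery was taken over genes of all levels that passed the filter, and not at the levels of the members.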

Additional observations from a re-analysis of the deposited data

Results flagged for a closer look

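The ratio of Rptor to Rictor counts was 1.81 in Con-mGC-1, while the other 4 Con libraries lay between 0.863 and 1.04. It was marked because its gap to the nearest library took 0.814 of the group's whole range, beyond Dixon's critical value for 5 samples. It was 1 of 28 groups of values examined, and chance alone marks about 1 in 20. The library also had the lowest Rictor level of the 10 fresh libraries (34.7 CPM) and the fewest detected genes of the fresh libraries (22071). The part of library quality in the ratio was not tested.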

How the results depend on the processing

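In EM-mGCs against Con-mGCs no alternative called a member (0 in each of 18), while called genes of all kinds numbered 116 with DESeq2, 4 without a filter and 0 to 46 when single libraries were left out (46 without Con-mGC-3, 1 without EM-mGC-1). With EET, called genes numbered 322 with DESeq2, 662 without a filter and 48 to 436 without single libraries. There 1 member, Ddit4, was called without a filter, and 0 to 1 without single libraries (1 without PBS library 1). The methods call the cultured replicates paired but do not tie the pairs to replicate numbers. The replicate number as a block gave 2 called genes in EM-mGCs, and with EET 341 genes and 1 member (Ddit4, adjusted p = 0.029). The correlation of same-numbered libraries' deviations from their group means was 0.12, 0.22 and -0.07 for PBS and EET and between -0.29 and 0.19 for Con and EM. With so few libraries, these correlations cannot show whether equal numbers mark pairs. The main EET fit left pairing out because no label ties the numbers to pairs.

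Of the changes that turned sign, Rheb in PBS culture was called under 1 alternative, higher without EM-mGC-3 (0.22), and the others were called under none. Rps6kb1 in EM-mGCs lay between -0.0895 and 0.0623 without single libraries and at -0.0384 without Con-mGC-1 and EM-mGC-3. With EET, Tsc2 lay between -0.0254 and 0.0551 and Rps6kb1 between -0.0211 and 0.0933 without single libraries. In PBS culture, Tsc1 gave -0.0008 with RLE factors, -0.23 with upper-quartile factors, -0.13 with a minimum of 10 counts, -0.0182 without mitochondrial genes and -0.052 to 0.0444 without single libraries. Ddit4 gave 0.0090 without a filter and -0.13 to 0.0537 without single libraries, and Rheb -0.10 with upper-quartile factors and -0.0089 with a minimum of 10 counts.

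Without single libraries the log2 ratio differences with EET lay between -0.28 and -0.15 for Rptor to Rictor, -0.0594 and 0.0381 for Tsc2 to Tsc1, -0.17 and -0.0008 for Eif4ebp1 to Eif4ebp2, and -0.0766 and 0.19 for Rps6kb1 to Rps6kb2. In EM-mGCs that of Rptor to Rictor lay between -0.039 and 0.23. The causes were not tested. Of the ratios, none can pass an adjusted threshold with 3 libraries a group, and 1.5-fold changes are mostly below what edgeR recovered in the EM and Con design.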
